A study of Mus musculus with 8 samples.

Results

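The genes described here encode 9 cytokine receptor chains, namely Il31ra, Osmr, Lifr, Il6st, Cntfr, Il6ra, Il4ra, Il13ra1 and Il17ra, which were chosen by name as receptors for interleukin-31 (IL-31), oncostatin M, leukemia inhibitory factor (LIF), ciliary neurotrophic factor (CNTF), interleukin-6, the type 2 cytokines and interleukin-17. All 9 were found among the 55414 genes listed for each library, and all 9 passed the filter on low counts that left 17721 genes for testing. Transcripts were counted by bulk RNA-seq of whole dorsal root ganglia (DRG), where the cell bodies of somatosensory neurons lie with their glia, taken from mouse embryos at E18.5. The AD1 OE group (AdvillinCre/+;Rosa26Dach1/+, 4 libraries) was compared with the Control group (Advillin+/+;Rosa26Dach1/+, 4 libraries), to ask what follows when Dach1, a transcriptional regulator that most somatosensory neurons switch off before birth, is broadly expressed again after this restriction has taken place. Both groups carried the Rosa26Dach1 allele, in which a floxed stop cassette precedes Dach1 and an EGFP reporter. Only AD1 OE carried Cre, which is expressed from the Advillin gene, a gene active in most somatosensory neurons, so that the Cre allele itself differed between the groups as well. As the study describes them, the 8 libraries came from separate embryos.

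Most of these receptors belong to the family built around gp130, the product of Il6st. gp130 binds no cytokine tightly by itself but forms the signalling core of receptors for interleukin-6, LIF, CNTF and oncostatin M, and passes the signal through JAK kinases to STAT3. OSMR joins gp130 to make the oncostatin M receptor, and joins IL31RA, a relative of gp130, to make the receptor for IL-31, a cytokine released by T cells that causes itch. IL4RA and IL13RA1 together receive interleukin-4 and interleukin-13 and signal through STAT6, and sensory neurons that carry them respond to the cytokines of allergic inflammation. IL17RA is the shared chain of the interleukin-17 receptors and signals through the adaptor Traf3ip2 rather than through STAT proteins. In adult DRG, Il31ra and Osmr mark a class of small itch neurons that also contain the peptides encoded by Nppb, Sst and Nts.

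Library totals ranged from 22339059 to 44025625 counts, and log2 CPM correlated at 0.988 to 0.995 between libraries of one group. In counts-per-million (CPM), Dach1 was higher in AD1 OE, at 95.9 ± 5.28 against 32.6 ± 1.64 (mean ± SD, n = 4 each), and Avil, the gene that carries the Cre, was lower at 450 to 478 against 840 to 919 CPM. The tissue label was met by 8 of 8 neuronal and 8 of 8 glial marker genes at a mean of at least 1 CPM. Sex-linked transcripts assigned 3 AD1 OE libraries and 1 Control library to males, and sex was therefore unevenly spread over the groups. In what follows, CPM values are scaled for library composition (TMM), log2 fold changes are AD1 OE over Control, and adjusted p-values come from edgeR's quasi-likelihood test with Benjamini-Hochberg adjustment over the 17721 tested genes. A gene was called at an adjusted p under 0.005 together with an absolute log2 fold change over 0.25.

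Of the 9 receptor genes, 1 was called, and it was Osmr, which was lower in AD1 OE. Over all tested genes 455, or 2.57%, were called in either direction. A second member, Il4ra, had lower values in every AD1 OE library than in any Control library without reaching the threshold. Groups that did not overlap were thus seen for 2 members, both lower, while 13.0% of all tested genes had groups that did not overlap in either direction. Unadjusted p-values under 0.05 were found for 4 members, these 2 together with Il6st, which was lower on average, and Cntfr, which was higher, and for 18.6% of all tested genes. The median log2 fold change of the 9 genes was -0.01, close to the 0.0018 of all tested genes.

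**Figure D1:**
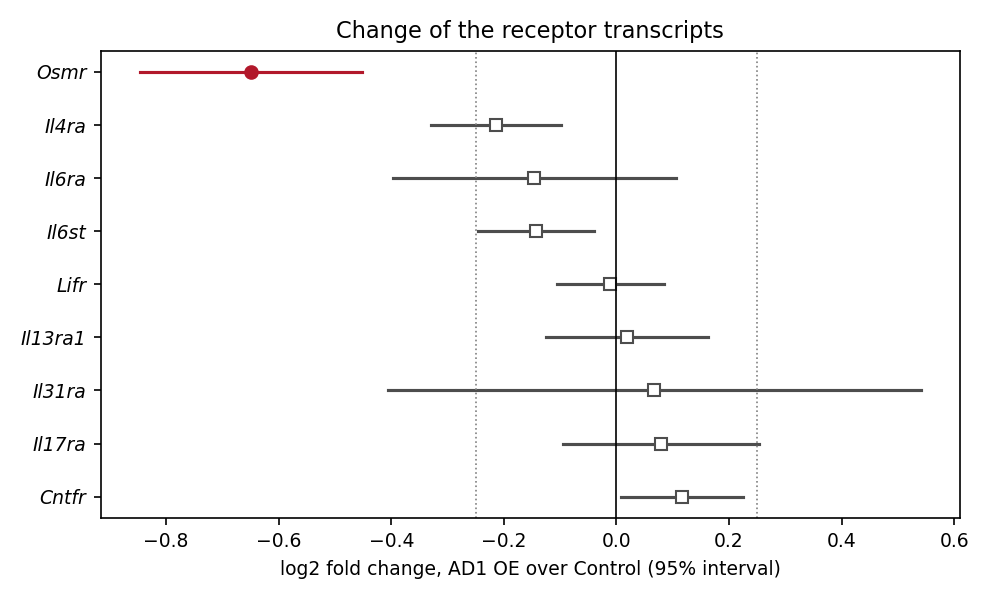
Log2 fold change (AD1 OE over Control, 4 libraries each) of the 9 receptor genes, ordered by size, with 95% intervals from the fit over all genes. Only Osmr, at -0.65 and drawn as a filled circle, lies beyond the dotted lines at an absolute log2 fold change of 0.25 and past the adjusted p threshold, and open squares are members that were not called.

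Osmr (ENSMUSG00000022146) lies on chromosome 15 and encodes the chain that the oncostatin M receptor and the IL-31 receptor have in common. Its level was 6.19, 6.24, 7.11 and 6.44 CPM in AD1 OE replicates 1 to 4, and 8.86, 10.9, 9.71 and 11.1 CPM in Control replicates 1 to 4. Every AD1 OE library lay below every Control library, and the highest AD1 OE value, in replicate 3, was still below the lowest Control value, in replicate 1. The group means were 6.50 ± 0.426 and 10.1 ± 1.05 CPM (SD, n = 4 each), so that AD1 OE held 64.1% of the Control level. The log2 fold change was -0.65 (SE 0.09, 95% interval -0.85 to -0.45) with an edgeR adjusted p of 8.72e-04. These values rest on 140 to 394 reads per library. The call held in 10 of 10 other fits and in 7 of 8 fits that left out a library. Without AD1 OE replicate 1 the fold change was -0.62 and the edgeR adjusted p of 0.00515 narrowly missed the threshold. In bulk ganglia, fewer Osmr-expressing cells and less Osmr RNA in each cell cannot be told apart.

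Osmr was lower in AD1 OE within each sex as well. In female libraries it was 7.11 CPM in the single AD1 OE library against a mean of 9.81 CPM in 3 Control libraries (72.5% of Control). In male libraries it was 6.29 CPM, the mean of 3 AD1 OE libraries, against 11.1 CPM in the single Control library (56.5% of Control). With a sex term in the model the call held.

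Il31ra (ENSMUSG00000050377), on chromosome 13, encodes the chain that binds IL-31 together with OSMR. It was measured at 1.22, 1.38, 1.15 and 1.37 CPM in AD1 OE and at 1.12, 1.25, 1.14 and 1.33 CPM in Control, from only 25 to 54 reads per library. The groups overlapped over nearly their whole range. The means were 1.28 ± 0.114 and 1.21 ± 0.0953 CPM (SD, n = 4 each), and the log2 fold change of 0.07 had a 95% interval of -0.41 to 0.54 (edgeR adjusted p = 0.911). A change of Il31ra as large as that of Osmr in the same direction lay outside the interval, and smaller changes within it are compatible with these counts. The interval is not a limit of what the threshold for a call could have detected at this depth. Its exons share bases with Gm3226 on the same strand, and its count is uncertain to that extent.

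The 250 bases before the annotated start site are given for the called gene, for its partner chain and for the other member whose groups did not overlap, so that the letters beside these starts can be compared (RefSeq, build GRCm38.p6, written 5′ to 3′ on the strand of the gene). Capitals mark the matches to any of 4 short motifs searched on both strands, namely the STAT-type motif TTCNNNGAA, the motif bound by RUNX factors, TGTGGT, the box of promoters rich in guanine and cytosine (GC box), which reads GGGCGG, and the core promoter element known as the TATA box, for which the letters TATAAA were used.
Osmr, chr15:6874314-6874563, minus strand: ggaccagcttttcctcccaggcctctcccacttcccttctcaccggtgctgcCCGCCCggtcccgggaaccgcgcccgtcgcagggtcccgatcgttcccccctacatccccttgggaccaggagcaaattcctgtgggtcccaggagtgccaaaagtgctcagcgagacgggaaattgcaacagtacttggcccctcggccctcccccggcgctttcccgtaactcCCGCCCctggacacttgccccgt
Il31ra, chr13:112580663-112580912, minus strand: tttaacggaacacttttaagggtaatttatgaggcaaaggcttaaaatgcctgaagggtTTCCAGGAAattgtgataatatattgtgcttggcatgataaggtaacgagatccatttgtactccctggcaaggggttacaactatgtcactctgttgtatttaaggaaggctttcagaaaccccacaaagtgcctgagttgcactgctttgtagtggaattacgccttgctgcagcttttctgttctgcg
Il4ra, chr7:125552021-125552270, plus strand: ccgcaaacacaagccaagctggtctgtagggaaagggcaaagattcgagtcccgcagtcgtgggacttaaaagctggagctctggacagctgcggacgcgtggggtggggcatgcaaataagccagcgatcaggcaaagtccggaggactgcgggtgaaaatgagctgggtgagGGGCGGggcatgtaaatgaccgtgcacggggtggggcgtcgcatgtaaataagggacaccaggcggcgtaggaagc
The Osmr window was 66% G and C and held 2 GC boxes, which begin 198 and 23 bases before the start site. The Il31ra window was 42% G and C and held no GC box but 1 STAT-type match, beginning 191 bases before the start. The Il4ra window had 59.6% G and C and 1 GC box at 76 bases. Promoter windows were found for 8 of the 9 members (14 windows, since some genes have several starts), and the Il31ra match was the single STAT-type match among them, while none held the RUNX or the TATA letters. GC boxes stood in at least 1 window of Osmr, Lifr, Il6st, Cntfr, Il4ra and Il13ra1. Of 32851 mouse windows of the same length, 7.02% held the STAT-type motif, 14% the RUNX motif, 32.7% the GC box and 12.4% the TATA box. These matches describe the letters in the windows and are not measured binding sites.

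Il6st, on chromosome 13 with no protein-coding gene between it and Il31ra, encodes gp130 itself. Its values were 395, 409, 382 and 419 CPM in AD1 OE and 418, 467, 442 and 444 CPM in Control. AD1 OE replicate 4 lay just above Control replicate 1, and the other 3 AD1 OE libraries lay below all Control libraries. The means of 401 ± 16.3 and 443 ± 20.2 CPM (SD, n = 4 each) put AD1 OE at 90.6% of Control, a log2 fold change of -0.14 (95% interval -0.25 to -0.04) that was not called (edgeR adjusted p = 0.114). Across the alternative fits that adjusted p ran from 0.0300 with DESeq2 to 0.269, and no fit called the gene.

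Lifr encodes the chain that joins gp130 in the receptor for LIF, and also enters the CNTF receptor. It is the neighbour of Osmr on chromosome 15, with no protein-coding gene between them. Lifr stood at 363, 371, 370 and 397 CPM in AD1 OE and at 361, 389, 379 and 384 CPM in Control. The lowest values of both groups were nearly equal, and the ranges lay over each other. The means were 375 ± 14.7 and 378 ± 12.3 CPM (SD, n = 4 each), with a log2 fold change of -0.01 and a narrow 95% interval of -0.11 to 0.08 (edgeR adjusted p = 0.932), which does not reach the size of the Osmr change.

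Cntfr encodes the chain that binds CNTF and is held to the membrane by a lipid anchor. It was at 116, 109, 129 and 113 CPM in AD1 OE and at 109, 110, 109 and 103 CPM in Control. The highest value was that of AD1 OE replicate 3 and the lowest that of Control replicate 4, while AD1 OE replicate 2 lay among the Control libraries. The log2 fold change of 0.12 (95% interval 0.0084 to 0.22) was not called (means 117 ± 8.65 and 108 ± 3.28 CPM, SD, n = 4 each, edgeR adjusted p = 0.228). With a sex term in the model it was 0.19, with an adjusted p of 0.0288.

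Il6ra, the chain that binds interleukin-6 and presents it to gp130, was among the weakly detected members, with 59 to 114 reads per library. Its levels were 2.58, 2.63, 2.68 and 2.81 CPM in AD1 OE and 3.19, 3.18, 2.63 and 2.82 CPM in Control. Control replicates 1 and 2 lay above all AD1 OE libraries, but Control replicates 3 and 4 lay within or next to their range. The log2 fold change was -0.15 with a 95% interval of -0.40 to 0.11 (means 2.67 ± 0.0982 and 2.96 ± 0.275 CPM, SD, n = 4 each, edgeR adjusted p = 0.552). Exons of Il6ra share bases with Gm42809 on the opposite strand. The library kit was a stranded one, but the sources used here do not say if reads were counted by strand.

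Among the receptors of the type 2 cytokines, Il4ra on chromosome 7 encodes the chain through which both interleukin-4 and interleukin-13 signal. It was measured at 29.1, 29.9, 30.7 and 29.9 CPM in AD1 OE and at 37.9, 33.6, 33.7 and 33.7 CPM in Control. All AD1 OE libraries lay below all Control libraries, and Control replicate 1 stood above the other 3, which were close together. The means were 29.9 ± 0.646 and 34.7 ± 2.15 CPM (SD, n = 4 each), 86.1% of Control, and the log2 fold change of -0.21 (SE 0.05, 95% interval -0.33 to -0.10) had an edgeR adjusted p of 0.0327. It was called in none of the 18 alternative fits, among which the adjusted p ran from 0.00928 with DESeq2 to 0.123 with a sex term. AD1 OE held 87.5% of the Control mean in female libraries (1 AD1 OE against 3 Control) and 88.1% in male libraries (3 AD1 OE against 1 Control). Each figure thus rests on a single library in 1 of the groups. Il4ra shares exon bases with Gm44876 on the opposite strand.

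Il13ra1, on the X chromosome, encodes the partner that completes the receptor for both cytokines. It stood at 18.6, 18.2, 17.7 and 16.4 CPM in AD1 OE and at 16.7, 19.2, 16.8 and 17.2 CPM in Control. The AD1 OE and Control libraries were interleaved. Its log2 fold change was 0.02 (95% interval -0.12 to 0.16, edgeR adjusted p = 0.920), with means of 17.7 ± 0.969 and 17.5 ± 1.15 CPM (SD, n = 4 each).

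Il17ra was at 11.4, 10.4, 11.1 and 10.1 CPM in AD1 OE and at 9.04, 10.5, 9.86 and 11.2 CPM in Control. The ranges overlapped, with Control replicate 1 the lowest of the 8 and AD1 OE replicate 1 the highest. The log2 fold change was 0.08 (95% interval -0.10 to 0.25, edgeR adjusted p = 0.663) between means of 10.7 ± 0.601 and 10.2 ± 0.916 CPM (SD, n = 4 each).

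**Figure D2:**
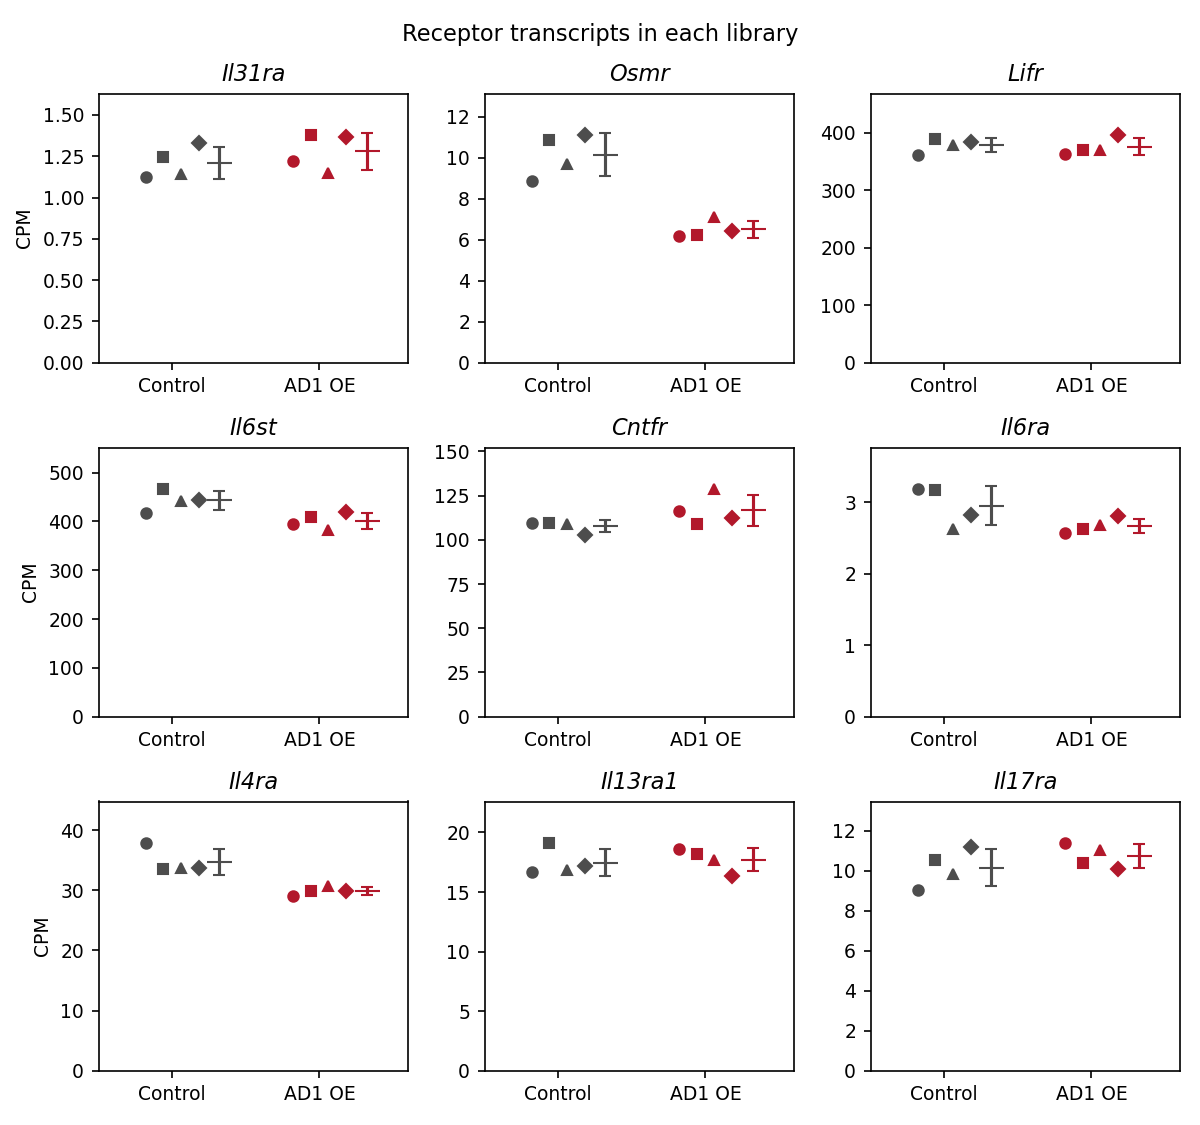
CPM of each receptor gene in every library, one panel per gene with its own axis from 0, Control in grey and AD1 OE in red, replicates 1 to 4 as circle, square, triangle and diamond, with the mean and SD of each group at its right. The 4 AD1 OE libraries lie below all Control libraries for Osmr (6.19 to 7.11 against 8.86 to 11.1 CPM) and for Il4ra (29.1 to 30.7 against 33.6 to 37.9 CPM), and the groups overlap in the other 7 panels.

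Levels of different receptors were compared per length, as transcripts-per-million (TPM) over the merged exons of each gene. In Control ganglia the shared chain Il6st was at 156 ± 9.85, Cntfr at 151 ± 5.08 and Lifr at 137 ± 7.25 TPM (SD, n = 4). These 3 chains, which together form the CNTF receptor, were the most abundant members, and the ranges of Il6st and Cntfr overlapped. The type 2 receptor chains followed, with Il4ra at 22.6 ± 0.874 and Il13ra1 at 18.4 ± 1.36 TPM. Il17ra was at 4.59 ± 0.483, Osmr at 3.28 ± 0.386, Il6ra at 1.34 ± 0.102 and Il31ra at 0.834 ± 0.0746 TPM. Apart from Il6st and Cntfr, neighbours in this order had Control ranges that did not overlap. Il6ra was thus far scarcer than the transcript of its partner gp130, and Il31ra was scarcer than that of its partner Osmr.

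In AD1 OE, Cntfr stood highest at 170 ± 13.5 TPM, with all libraries above the Control range on this scale although its CPM ranges overlapped, followed by Il6st at 147 ± 5.51 and Lifr at 141 ± 5.63 TPM (SD, n = 4). Il4ra, at 20.2 ± 0.504, and Il13ra1, at 19.4 ± 1.03 TPM, were separate in Control but had overlapping ranges in AD1 OE. Osmr was at 2.18 ± 0.154 TPM, between Il17ra at 5.03 ± 0.293 and Il6ra at 1.25 ± 0.0484 TPM, and Il31ra was at 0.915 ± 0.0776 TPM. The order depends on the length used for each gene. With the longest annotated transcript in place of the merged exons, Cntfr came before Il6st in Control (164 against 155 TPM) and Osmr before Il17ra (5.62 against 3.98 TPM), because the merged exons of Osmr span 12113 bases and its longest transcript 5491.

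**Figure D3:**
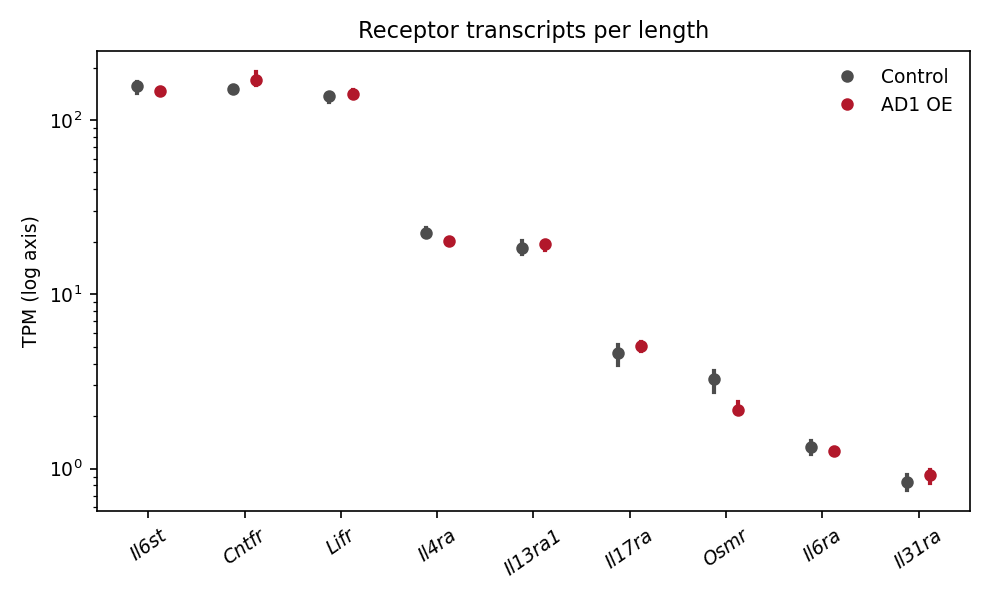
TPM (logarithmic axis) of the 9 receptor genes over merged exon length, ordered by the Control mean, with points for the group means and bars for the lowest to highest of 4 libraries. Il6st, Cntfr and Lifr have means between 137 and 170 TPM in both groups and Il31ra and Il6ra lie near 1 TPM. The ranges of the groups are apart for Osmr, for Il4ra (22.0 to 23.9 in Control against 19.7 to 20.9 TPM in AD1 OE) and for Cntfr (146 to 156 against 158 to 189 TPM).

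Ratios between chains of one receptor were then taken within each library, which removes the library scaling. The ratios were chosen after the values had been seen and are given as a description. An exact permutation test was run on them, but its p-values are left out, since ratios picked from these values cannot be tested with them. Those that hold Osmr restate its lower level against partner chains that were not called. For the oncostatin M receptor, 100 Il6st reads were accompanied by 1.53 to 1.86 Osmr reads in AD1 OE and by 2.12 to 2.50 in Control, a log2 difference of -0.50. For the IL-31 receptor, 100 Il31ra reads were accompanied by 452 to 620 Osmr reads in AD1 OE and by 788 to 872.5 in Control, a log2 difference of -0.72. Both pairs of ranges were separate.

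Relative to its neighbour Lifr, Osmr stood at a mean of 1.73 against 2.67 Osmr reads per 100 Lifr reads, a log2 difference of -0.63. For the LIF receptor the ratio moved the other way, from 83.3 to 86.4 Lifr reads per 100 Il6st reads in Control to 90.7 to 97.0 in AD1 OE, a log2 difference of 0.13. Neither Lifr nor Il6st was called on its own. For the type 2 receptor, 156 to 183 Il4ra reads per 100 Il13ra1 reads in AD1 OE overlapped with 175 to 227 in Control (log2 difference -0.23).

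**Figure D4:**
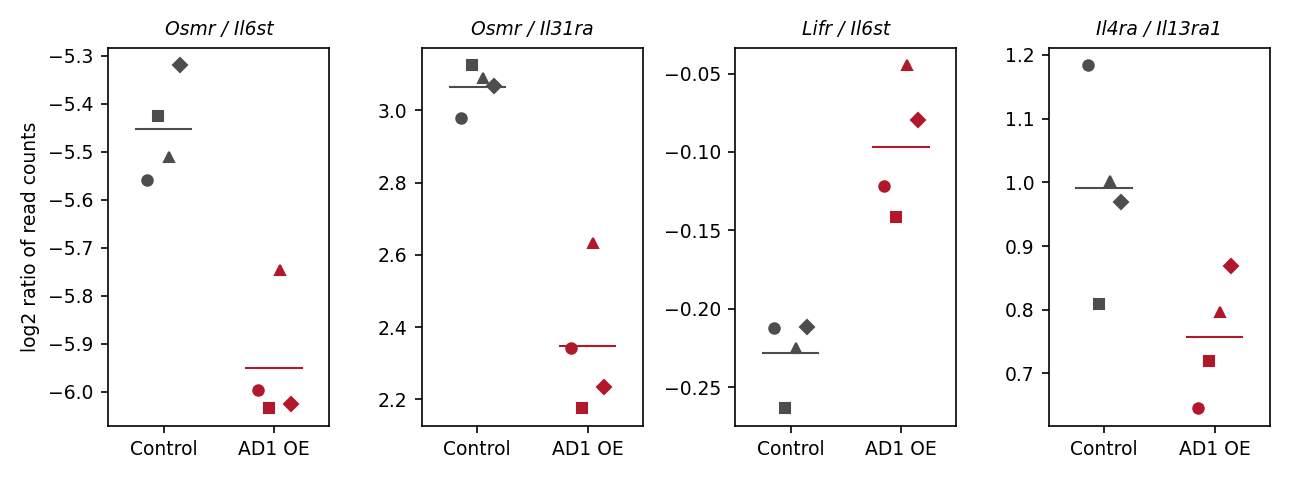
Log2 ratio of read counts of receptor chains in each library (points, Control grey and AD1 OE red, replicates 1 to 4 as circle, square, triangle and diamond) with group means as lines. Osmr over Il6st and Osmr over Il31ra are lower in all 4 AD1 OE libraries, Lifr over Il6st is higher in all 4, and Il4ra over Il13ra1 overlaps between the groups, and each panel has its own axis, which does not start at 0.

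Around the receptors, 8 lists of pathway genes (100 genes, 86 of them tested) were read from the same fit. Of the 86 genes, 3 were called lower and 2 higher, and their median log2 fold change was -0.00035. Over all tested genes, 2.57% were called in either direction and 18.6% had an unadjusted p under 0.05. The counts per list given below rest on few genes each and are to be read beside these shares. The ligands of the gp130 family, 12 genes, included 7 that could be tested, and none was called by edgeR, with 2 at an unadjusted p under 0.05. Clcf1, whose product is a second ligand of the CNTF receptor, averaged 12.8 ± 1.27 CPM in AD1 OE against 16.2 ± 1.11 CPM in Control (SD, n = 4 each, log2 fold change -0.34, adjusted p = 0.0240), and DESeq2 called it with an adjusted p of 0.00447. Ctf1, encoding cardiotrophin, had a log2 fold change of 0.19 (adjusted p = 0.488). Lif, named after its values were seen, was 0.971 ± 0.144 against 0.652 ± 0.119 CPM (SD, n = 4 each, log2 fold change 0.59, edgeR adjusted p = 0.130).

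The cytokines that gave several of these receptors their names were represented by few reads. Il31 had at most 1 read in any library, Osm and Il6 at most 4, and Cntf at most 8, so that no change of these ligands could be tested. The 2 further gp130-family receptor chains, Il11ra1 and Il27ra, were not called, with log2 fold changes of -0.03 and 0.01 and edgeR adjusted p-values of 0.905 and 0.990.

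Among 19 chains of other cytokine receptors, 17 were tested and 1 was called. Il10ra, which binds interleukin-10 and signals through JAK1 and STAT3, averaged 3.75 ± 0.530 CPM in the AD1 OE libraries against 7.78 ± 0.802 CPM in Control (SD, n = 4 each), with a log2 fold change of -1.06 (SE 0.12, edgeR adjusted p = 1.56e-04). The groups did not overlap. The most abundant chains of that list, Ifnar1 and Ifngr2 of the interferon receptors, had log2 fold changes of -0.07 and -0.12 and were not called (adjusted p = 0.247 and 0.0521). Their groups did not overlap either. Of the 17 tested chains, 3 were lower and 1 higher without overlap, beside 13.0% of all tested genes in either direction. Of 11 type 2, interleukin-17 and alarmin cytokines, 5 were tested and none was called by edgeR, with 0 at an unadjusted p under 0.05. Il4 and Il33, the most abundant of them, had log2 fold changes of -0.08 and -0.16.

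Downstream of the receptors, 19 of 20 kinase, STAT and adaptor genes were tested and 1 was called. Jak1, the kinase that binds to gp130, OSMR and IL4RA alike, was at 221, 207, 213 and 212 CPM in AD1 OE and at 269, 275, 258 and 259 CPM in Control. All AD1 OE libraries lay well below all Control libraries. The means of 213 ± 5.98 and 265 ± 8.17 CPM (SD, n = 4 each) gave a log2 fold change of -0.31 (SE 0.04, edgeR adjusted p = 2.80e-04), and the call held in 10 of 10 other fits and in 8 of 8 fits that left out a library. Exons of Jak1 share bases with Raver2 on the opposite strand. Stat3, the main transcription factor of the family, had a log2 fold change of -0.08 (adjusted p = 0.326) and Ptpn11, a phosphatase that links gp130 to the MAP kinases, one of 0.07 (adjusted p = 0.349). Stat6, which acts below IL4RA and was named after its values were seen, had higher values in all AD1 OE libraries but was not called (73.0 ± 1.97 against 62.2 ± 3.90 CPM, SD, n = 4 each, log2 fold change 0.23, edgeR adjusted p = 0.0134).

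None of the 15 feedback inhibitors was called by edgeR, with 2 at an unadjusted p under 0.05 (against 18.6% of all tested genes). Their median log2 fold change was 0.01. Socs7 and Ptpn1, the most abundant of them, had log2 fold changes of -0.05 and 0.01. Socs3, the inhibitor that binds gp130, was named after its values were seen and had a log2 fold change of 0.10 (adjusted p = 0.523). Of 13 genes known as STAT3 targets, 2 were called (against 2.57% of all tested genes), both higher, with a median of 0.07. Gal, encoding the neuropeptide galanin, was at 83.9 ± 4.35 against 63.0 ± 5.07 CPM (SD, n = 4 each, log2 fold change 0.42, SE 0.06, edgeR adjusted p = 9.59e-04), a call lost without AD1 OE replicate 1 (adjusted p = 0.00510). Reg3b, which encodes a secreted lectin that injured sensory neurons make, was at 7.43 ± 0.640 against 2.90 ± 0.374 CPM (SD, n = 4 each, log2 fold change 1.36, SE 0.11, edgeR adjusted p = 1.56e-05). The other 11 were not called, among them the most abundant, Mcl1 and Myc, with log2 fold changes of -0.02 and -0.07. Vip, a neuropeptide gene named after its values were seen, went the other way and lay lower in every AD1 OE library without being called (0.654 ± 0.200 against 1.34 ± 0.0876 CPM, SD, n = 4 each, log2 fold change -1.02, edgeR adjusted p = 0.0147). Gfap, a glial filament gene also named after its values were seen, had a log2 fold change of -0.78 with overlapping groups (adjusted p = 0.136).

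The last list held 8 genes of the itch neurons that carry Il31ra and Osmr in the adult. All were tested, 6 had a log2 fold change below 0, their median was -0.42, and 1 was called. Over all 17721 tested genes, 8765 had a log2 fold change below 0 and 2.57% were called. Nts, encoding neurotensin, was at 0.791, 0.802, 0.842 and 1.15 CPM in AD1 OE and at 2.92, 2.46, 2.40 and 2.03 CPM in Control, from 18 to 79 reads per library. The groups were far apart, with a log2 fold change of -1.44 (SE 0.18, edgeR adjusted p = 3.65e-04). Among those not called, the ATP receptor gene P2rx3 had a log2 fold change of 0.16 (adjusted p = 0.0642). It was higher in every AD1 OE library (441 to 452 against 377 to 432 CPM), while 3 genes of the list were lower without overlap. The heat and capsaicin channel gene Trpv1 had a log2 fold change of -0.12 (adjusted p = 0.489) and overlapping groups.

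The remaining genes of that list were named after their values were seen. Cysltr2, a leukotriene receptor of itch neurons, was at 0.363 ± 0.121 against 0.969 ± 0.154 CPM (SD, n = 4 each, log2 fold change -1.35) with an edgeR adjusted p of 0.00641. Nppb had 1 to 19 reads per library and a log2 fold change of -1.24 (adjusted p = 0.0878), and Trpa1 one of -0.47 (adjusted p = 0.327). Sst and Htr1f had log2 fold changes of -0.38 and 0.02, with adjusted p-values of 0.578 and 0.990. Il31ra, a marker of the same class, lay at 0.07. Whether a shift in these neurons has a part in the Osmr difference was not tested.

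**Figure D5:**
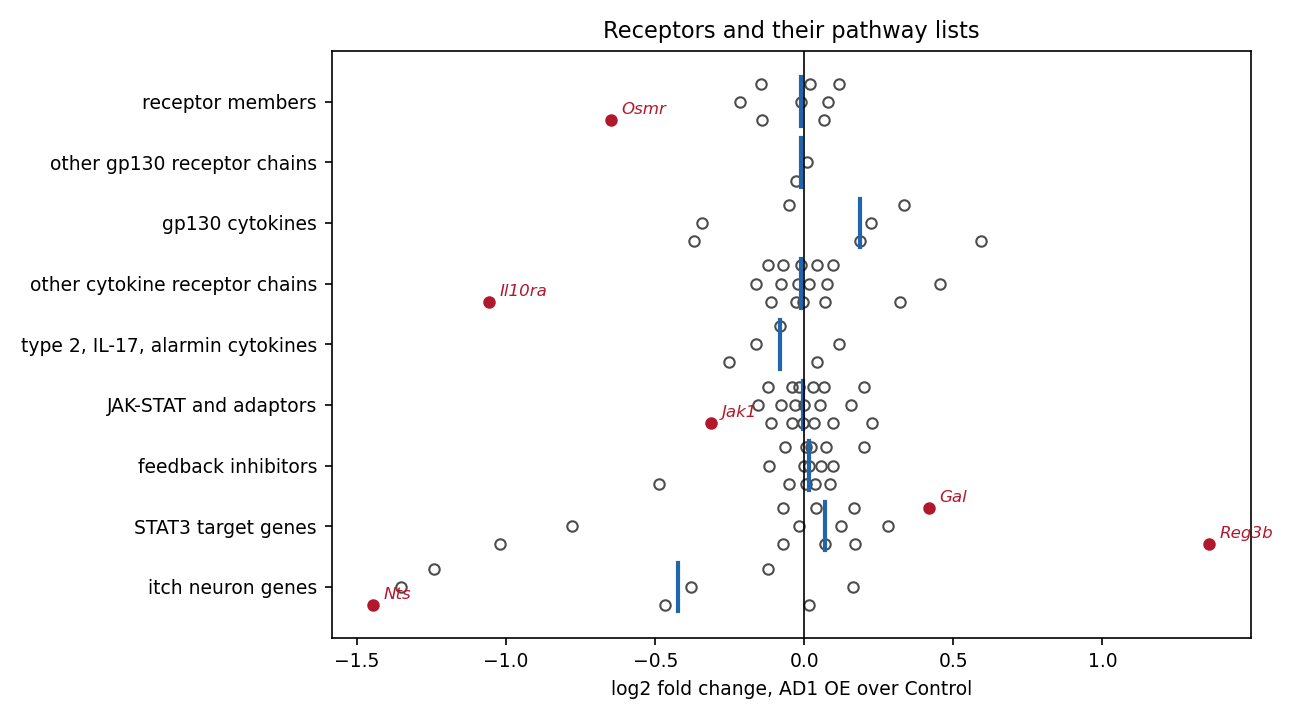
Log2 fold changes (AD1 OE over Control) of the 9 receptor genes and of the tested genes of 8 pathway lists, one row per list, with called genes filled and named and the median of each list as a vertical bar. Called genes are Osmr, Il10ra, Jak1 and Nts to the left of 0 and Gal and Reg3b to the right. The bar of the itch neuron genes, at -0.42, lies furthest to the left, between Trpa1 and Sst, which were not called.

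Markers of the other cells in the ganglia were read beside these results. Summed levels of 8 glial markers ranged from 1041 to 1302 CPM in AD1 OE and from 1077 to 1301 CPM in Control, and those of 8 neuronal markers from 8029 to 8768 and from 8466 to 8781 CPM. Both pairs of ranges overlapped. The sums of 6 fibroblast markers (5777 to 6542 against 4947 to 6065 CPM), 6 endothelial markers (276 to 327 against 285 to 297 CPM), 5 mural markers (193 to 208 against 193 to 203 CPM) and 8 macrophage markers (97.7 to 114 against 104 to 113 CPM) overlapped too. So did those of 5 erythroid genes (214 to 730 against 204 to 355 CPM), 5 skeletal muscle genes (72.8 to 383 against 92.3 to 252 CPM) and 7 spinal cord genes (1.88 to 4.36 against 2.09 to 19.2 CPM). Of the 6 fibroblast markers, 4 had an unadjusted edgeR p under 0.05 (against 18.6% of all tested genes) and none was called. Groups did not overlap for 1 neuronal marker (higher), 1 glial marker (lower) and 1 fibroblast marker (higher), against 13.0% of all tested genes. A part of cell composition in the differences was not tested. Spinal cord genes were unevenly spread over the Control libraries. Olig1, named after its values were seen, was 8.37 and 3.78 CPM in Control replicates 1 and 4. It was 0.903 and 1.65 CPM in Control replicates 2 and 3, and 0.678 to 1.53 CPM in AD1 OE. The 4 tested genes of that list had log2 fold changes below 0 (median -1.43) and none was called. Control replicate 1 also had the highest Il4ra value (37.9 CPM), while Control replicate 4 was at 33.7 CPM, beside 33.6 and 33.7 CPM in Control replicates 2 and 3. A part of spinal cord RNA in the differences was not tested.

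Markers of mast cells and lymphocytes (6 genes) summed to 7.20 to 10.1 CPM in AD1 OE and 9.94 to 12.6 CPM in Control, ranges that overlapped, with 2 of 6 at a mean of at least 1 CPM. Of these, Cpa3, a mast cell protease gene named after its values were seen, was called lower (log2 fold change -0.66, SE 0.12, edgeR adjusted p = 0.00480). The other mast cell genes were not called and had overlapping groups, Tpsb2 with a log2 fold change of -0.36 (adjusted p = 0.182) and Ms4a2 with one of 0.04 (adjusted p = 0.953). The T cell gene Cd3e stayed below 1 CPM on average in both groups, with a log2 fold change of 1.55 (adjusted p = 0.131) and overlapping groups. AD1 OE replicate 1 held 69 Cd3e reads, the other AD1 OE libraries 9 to 15 and the Control libraries 4 to 11. Mast cells also carry cytokine receptors, and their part in the Osmr, Il4ra and Il10ra differences was not tested.

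Finally, the genes whose profile over the 8 libraries was most like that of Osmr or of Il31ra were sought among 13939 genes, by the root mean square difference of log2 CPM after centring each gene on its mean. The closest to Osmr were Cdhr1 (0.0825), Tspan8 (0.0861) and Cab39l (0.0906). All 3 were called lower in AD1 OE, with log2 fold changes of -0.71, -0.78 and -0.59, like Osmr itself. The closest to Il31ra were Serpina3n (0.0350), Cd55 (0.0390) and Prps1 (0.0449), none of them called, with log2 fold changes of 0.06, 0.10 and 0.04. These genes were picked by likeness over the libraries of both groups, so their direction and calls follow largely from that choice. Likeness over 8 libraries is a description of these values.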

How the data were processed

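Per the labels and the study's methods, DRG were dissected at E18.5, and poly(A) RNA libraries, made with a stranded kit, were sequenced on an Illumina instrument. The authors processed the reads with bcl2fastq 2.20.0.422, STAR 2.7.8a and featureCounts 2.0.1 on GRCm39, as the submitters' processing notes list them, and deposited raw counts per Ensembl gene, 1 file per library. Symbols, exon lengths and neighbours came from GENCODE M21 (GRCm38), which named 52081 of 55414 IDs.

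The test was edgeR 4.0.16 under R 4.3.3 (filterByExpr, TMM, quasi-likelihood F test, genotype as the only term). Thresholds are those of the study, which used DESeq2 for this comparison. DESeq2 1.42.0, limma-voom (limma 3.58.1), other scalings, filters and thresholds, a replicate block, a sex term, a robust fit and leaving out each library were alternatives. Log2 CPM for profile likeness used a prior count of 2. The fits were tested on simulated data with 200 changed genes. Sex was read from sex-linked transcripts. The members, lists and tests were chosen with earlier results of these data known. All members were named, as were called genes of the lists, the 2 most abundant uncalled genes of each list, and the 3 genes nearest to Osmr and to Il31ra. Any other gene was named after its values were seen. Reads carried no molecular identifiers. One marker gene is not reported here and was left out of its list.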

Additional observations from a re-analysis of the deposited data

Results flagged for a closer look

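In 6 of 76 groups of 4 libraries, 1 library lay apart from the other 3 by Dixon's test at its 95% critical value, where chance alone gives about 1 in 20. Of the receptors, Il4ra was 37.9 CPM in Control replicate 1 and 33.6 to 33.7 CPM in the other Control libraries, and Cntfr was 103 CPM in Control replicate 4 and 109 to 110 CPM in the others. Ptpn11 was 154 CPM in AD1 OE replicate 1 and 141 to 142 CPM in the others. Reg3b was 6.48 CPM in AD1 OE replicate 4 against 7.64 to 7.84 CPM, and 3.46 CPM in Control replicate 3 against 2.68 to 2.77 CPM. Nts was 1.15 CPM in AD1 OE replicate 4 against 0.791 to 0.842 CPM in the others.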

How the results depend on the processing

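Of the 455 genes called, the number was 747 without an expression filter, 1161 at an adjusted p under 0.05 with no fold limit, 129 at that p with an absolute log2 fold change over 1, and 289 to 420 when a library was left out. Among the receptors 1 was called in the fit as reported, 2 (Osmr and Il4ra) at an adjusted p under 0.05 with no fold limit, 0 with a log2 fold change over 1, and 0 to 1 when a library was left out (0 without AD1 OE replicate 1). Of the pathway genes 5 were called, 8 without an expression filter and 11 at an adjusted p under 0.05. The replicate numbers did not pair the libraries (correlations of deviations -0.00991, -0.0541, -0.035 and 0.313, with 2 of 8 libraries nearest to their own number), and with the replicate block 348 genes, 1 receptor and 5 pathway genes were called. Signs turned only for uncalled genes near 0. The log2 fold change was -0.0231 for Il31ra, 0.0604 for Il11ra1, -0.0504 for Serpina3n and -0.0179 for Prps1 with a sex term, 0.0075 for Lifr without composition scaling, and -0.0393 for Il27ra with limma-voom. When a library was left out, it ran from -0.0337 to 0.0047 for Lifr, -0.0076 to 0.0667 for Il13ra1, -0.079 to 0.0507 for Il11ra1, -0.0916 to 0.1451 for Il27ra, -0.0214 to 0.0397 for Ptpn1 and -0.0447 to 0.0179 for Mcl1. The causes were not tested. Depth limits Il31ra (25 to 54 reads) and Il6ra (59 to 114 reads) most. The calls of Jak1, Il10ra, Nts and Reg3b held in 10 of 10 other fits and in 8 of 8 fits that left out a library.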
